A study of Mus musculus with 96 samples.

Results

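Transcript levels of 8 stress-responsive transcriptional regulators, Atf3, Atf4, Atf5, Ddit3, Cebpb, Cebpg, Cebpd and Nupr1, were followed across all 35 conditions of an RNA-seq study of mitochondrial inhibition in C2C12 cells, a mouse myoblast line that fuses into contractile myotubes when serum is lowered. The genes were chosen by name, as ATF and C/EBP bZIP factors that respond to stress, and are 8 of the 54146 genes in the count table. Nupr1 was named in the same set, although its protein is a small chromatin-associated co-regulator and not a bZIP factor.

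The 96 samples comprised 17 myoblast conditions, 15 myotube conditions and 3 conditions of cells held for 24 hr in low serum, called day 1 cells here. Of these conditions 26 had 3 samples and 9 had 2 samples. Myoblasts grew in 10% dialyzed serum and carried a lentiviral transgene behind a doxycycline-inducible promoter, with 300 ng/ml doxycycline added to all of them, vehicle controls included. The transgene was luciferase (control myoblasts), LbNOX (a bacterial water-forming NADH oxidase that acts in the cytosol), mitoLbNOX (the same enzyme directed to the mitochondrial matrix) or NDI1 (a single-subunit yeast NADH dehydrogenase that piericidin does not block). Myotubes had spent 4 days in 2% horse serum and were untransduced, or had received adenovirus encoding GFP or LbNOX together with eGFP. Day 1 cells were untransduced. Treatments lasted 10 hr: DMSO as vehicle, 0.5 µM piericidin (a complex I inhibitor), 0.5 µM antimycin (a complex III inhibitor), 1 µM oligomycin (an ATP synthase inhibitor), 0.5 µM BAM15 (an uncoupler that lets protons return across the inner membrane), or combinations of these. Some myotubes were kept in 5% oxygen, which began the night before treatment and continued through it, so their exposure to low oxygen was longer than 10 hr. Chloramphenicol, an inhibitor of mitochondrial translation, was given at 20 µg/ml for 48 hr with its own 48 hr DMSO controls. The study's text places this experiment in medium with uridine, whereas the inhibitor treatments of 10 hr were in medium without it, and fewer cells per well were seeded for it. All cells derive from 1 cell line, and the labels do not say whether replicates were separate cultures, so p-values measure the spread between these samples, which may be technical. Myoblasts, day 1 cells and myotubes also differ in transduction, doxycycline, serum and density, so the effect of cell state and of these cannot be told apart.

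The integrated stress response is a signalling pathway in which kinases that sense different stresses phosphorylate the translation factor eIF2α, general protein synthesis falls, and translation of the Atf4 mRNA rises through its upstream open reading frames. ATF4 is a bZIP factor that binds DNA as a dimer, often with a C/EBP partner such as CEBPG, and induces genes of amino acid uptake and synthesis, aminoacyl-tRNA synthetases and further regulators, among them Ddit3 (also called CHOP), Atf3, Atf5 and Nupr1. Mitochondrial inhibitors are known activators of this response in muscle cells. Since ATF4 and ATF5 are controlled largely at translation, transcript levels give only part of their regulation.

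Promoter sequence was examined because most of these genes moved together. The windows came from RefSeq (GRCm38.p6) and covered 250 bases before to 50 bases after each annotated start. Of the 8 genes, 7 had a window, with 2 windows for Atf5, and Cebpd had none. Each window was searched on both strands for the C/EBP-ATF response element (CARE, TGATGNAA), the cAMP response element TGACGTCA, the AP-1 element TGANTCA and the C/EBP palindrome TTGCGCAA. A CARE match stood in Atf3 and in Nupr1, in both cases on the opposite strand (written TTGCATCA on the gene's strand) with its first base 110 bases before the start. An AP-1 match, TGACTCA, stood in Ddit3 with its first base 242 bases before the start. No other window held any of the 4 motifs, and no match overlapped another. Of 32817 promoter windows of the same length, 3.97% held a CARE match, 1.79% a cAMP response element, 7.81% an AP-1 match and 0.183% the C/EBP palindrome. The 3 windows with a match are given 5′ to 3′ on the gene's strand over the 250 bases before the start, with the matched motif in capitals (Atf3 chr1:191183334-191183583, minus strand; Nupr1 chr7:126625471-126625720, minus strand; Ddit3 chr10:127290543-127290792, plus strand). The starts used for Atf3 and Nupr1 lie inside the longer genes of the annotation used for positions.
Atf3: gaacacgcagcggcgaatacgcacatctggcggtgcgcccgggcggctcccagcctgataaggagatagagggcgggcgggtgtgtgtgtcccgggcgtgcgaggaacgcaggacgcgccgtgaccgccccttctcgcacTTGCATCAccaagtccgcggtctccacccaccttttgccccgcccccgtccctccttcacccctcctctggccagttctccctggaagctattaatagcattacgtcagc
Nupr1: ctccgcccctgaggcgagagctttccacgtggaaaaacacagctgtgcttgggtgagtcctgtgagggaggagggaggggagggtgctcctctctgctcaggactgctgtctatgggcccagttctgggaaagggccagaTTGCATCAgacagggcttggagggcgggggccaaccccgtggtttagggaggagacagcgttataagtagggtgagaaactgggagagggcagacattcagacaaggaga
Ddit3: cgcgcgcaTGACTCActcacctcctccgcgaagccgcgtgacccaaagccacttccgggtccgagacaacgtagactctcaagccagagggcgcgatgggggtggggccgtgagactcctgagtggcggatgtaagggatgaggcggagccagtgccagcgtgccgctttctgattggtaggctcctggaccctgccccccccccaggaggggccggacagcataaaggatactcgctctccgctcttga

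Total estimated counts per sample ranged from 6458295 to 15366745 (median 10336588.5). Each transgene was detected in every sample labelled as carrying it and had 0 counts in all others. The lowest carrier held 736 counts of Luc, 2189 of LbNOX, 372 of NDI1 and 20826 of eGFP. The summed level of 8 myoblast markers was 683 to 1390 CPM (counts scaled to the TMM-adjusted library total) in myoblasts, 410 to 464 CPM in day 1 cells and 186 to 326 CPM in myotubes, while 10 myotube markers summed to 10.7 to 92.0, 11800 to 12600 and 12900 to 17100 CPM. Fibroblast markers (Pdgfra, Dcn and Lum) summed to 0.445 to 6.12 CPM in myoblasts, 88.3 to 101 CPM in day 1 cells and 29.2 to 46.2 CPM in myotubes, and their part in the differences between cell states was not tested. Adipocyte markers did not exceed 2.26 CPM in sum, and neuron and hepatocyte markers stayed at or under 0.433 CPM. In these bulk samples fewer cells expressing a gene and less RNA per cell cannot be told apart.

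The 8 genes lie on 6 chromosomes (GRCm38): Atf3 at chr1:191170296-191218039, Cebpb at chr2:167688915-167690418, Ddit3 at chr10:127290774-127296288, Atf4 at chr15:80255184-80257541, Cebpd at chr16:15887286-15891031, and 3 genes on chromosome 7, Cebpg at chr7:35046422-35056573, Atf5 at chr7:44812256-44816658 and Nupr1 at chr7:126623249-126630861. The libraries did not keep strand, so reads from an exon that overlaps a gene on the opposite strand cannot be told apart from it. This concerns Atf5, which shares exonic sequence with Nup62 (286 to 1604 counts per sample), Ddit3 with Mars (796 to 3237 counts), Cebpb with Tmem189 (29 to 338 counts) and Cebpd with Spidr (58 to 431 counts). Depth separated the genes into abundant and sparse ones. Atf4 had at least 1232 counts in every sample, Nupr1 at least 181 and Ddit3 at least 146. Cebpg ranged from 59 to 484 counts, Atf5 from 19 to 166, Cebpd from 3 to 66, and Atf3 from 4 to 3225. Cebpb had 0 to 26 counts, did not reach 16 counts in every replicate of any condition, and entered no test. Cebpd passed this filter in all sets of samples except the chloramphenicol experiment, so 7 genes were tested, or 6 with chloramphenicol.

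Compared per length, Atf4 was the most abundant of the 8 transcripts in DMSO-treated control myoblasts. Its level was 260.9 ± 6.39 TPM (SD, n = 3), against 23.9 ± 2.68 TPM for Ddit3 and 23.6 ± 1.77 TPM for Nupr1. TPM here scales counts to library total and to the combined length of all annotated exons of a gene. For Ddit3 this length is 1713 bases against 969 in its longest transcript, and for Atf4 2358 against 2019. Levels of different genes therefore compare only roughly. Atf5 stood at 4.66 ± 0.40 TPM, Cebpg at 4.34 ± 0.107 TPM, Atf3 at 1.18 ± 0.351 TPM, Cebpd at 0.884 ± 0.699 TPM and Cebpb at 0.606 ± 0.452 TPM. Under antimycin the leading transcripts were Atf4 (1480 ± 41.8 TPM), Ddit3 (739 ± 19.9 TPM) and then Atf3, which was among the scarcest in DMSO and stood at 340.4 ± 13.8 TPM. All other levels below are CPM and compare 1 gene across conditions.

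In control myoblasts piericidin, antimycin and oligomycin each raised Atf4, Ddit3, Atf3, Atf5, Nupr1 and Cebpg. These were 6 of the 7 genes tested for piericidin, antimycin and oligomycin alike (edgeR quasi-likelihood F test, Benjamini-Hochberg adjusted p under 0.05). Of all genes tested, piericidin changed 61.7%, antimycin 63.2% and oligomycin 50.8%, so being called is common in these comparisons and the sizes carry more information than the counts. The median log2 change of the 7 genes was 2.39, 2.67 and 1.97, beside medians over all genes of −0.00368, −0.00478 and −0.0148.

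Atf4, the pathway's central activator, was at 232, 224 and 238 CPM in the 3 DMSO samples. Piericidin samples held 1161, 1211 and 1217 CPM, antimycin samples 1535, 1607 and 1518 CPM, and oligomycin samples 731, 726 and 734 CPM. No sample of one treatment overlapped another. The log2 changes were 2.39 ± 0.033 (SE, adjusted p = 1.1e-30) for piericidin, 2.78 ± 0.034 (adjusted p = 2.02e-32) for antimycin and 1.66 ± 0.032 (adjusted p = 5.26e-27) for oligomycin.

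Ddit3, a target of ATF4 whose protein pairs with other C/EBP factors and promotes cell death under prolonged stress, moved further. Its DMSO samples held 17.1, 15.2 and 13.8 CPM. Under piericidin the level was 364, 370 and 368 CPM, under antimycin 560, 580 and 551 CPM, and under oligomycin 258, 266 and 255 CPM. The treated groups again did not overlap, with log2 changes of 4.60 ± 0.069, 5.23 ± 0.070 and 4.08 ± 0.068.

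Atf3, a stress-induced repressor and activator that can bind CRE and AP-1 elements, showed the widest range of the set. DMSO samples held 0.637, 1.04 and 1.19 CPM, which is close to the detection limit of these libraries. Levels were 154, 165 and 147 CPM with piericidin, 309, 344 and 326 CPM with antimycin, and 63.7, 56.8 and 59.4 CPM with oligomycin. The log2 changes of 7.33 ± 0.213, 8.42 ± 0.214 and 5.94 ± 0.216 rest on few DMSO reads, and the differences between inhibitors, which do not use those reads, are the better measured.

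Nupr1, the co-regulator induced by nutrient and endoplasmic reticulum stress, had 24.2, 21.4 and 21.3 CPM in DMSO. It reached 203, 218 and 216 CPM with piericidin, 127, 144 and 145 CPM with antimycin, and 131, 124 and 120 CPM with oligomycin. Piericidin samples were above all others, whereas antimycin and oligomycin samples overlapped. The log2 changes were 3.27 ± 0.074, 2.67 ± 0.073 and 2.49 ± 0.072.

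Cebpg, the dimerization partner of ATF4, differed in its order of inhibitors. DMSO samples held 9.38, 8.86 and 9.26 CPM, piericidin samples 29.3, 27.6 and 27.9 CPM, antimycin samples 22.5, 27.6 and 24.5 CPM, and oligomycin samples 36.4, 40.1 and 31.5 CPM. Oligomycin samples were the highest, with a log2 change of 1.97 ± 0.139, followed by piericidin (1.64 ± 0.141) and antimycin (1.47 ± 0.142).

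Atf5, the ATF4 relative linked to the mitochondrial unfolded protein response, rose from 3.28, 3.81 and 3.39 CPM in DMSO to 18.6, 13.3 and 17.4 CPM with piericidin, 6.87, 8.31 and 10.1 CPM with antimycin and 10.2, 8.58 and 11.3 CPM with oligomycin. Its log2 changes were 2.24 ± 0.294, 1.29 ± 0.301 (adjusted p = 0.000474) and 1.50 ± 0.297. Each sample has a code that was read here as its position on a 96-well plate, which the labels do not state. By this reading all 3 DMSO samples lay at the plate's edge. With this well position as a covariate the antimycin change was 0.70, still called.

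Cebpd and Cebpb, the inflammation-related C/EBP factors, gave no call. Cebpd held 0.819, 2.36 and 0.55 CPM in DMSO, and its log2 changes were 0.80 ± 0.450 (adjusted p = 0.124) for piericidin, 0.62 ± 0.455 (adjusted p = 0.237) for antimycin and −0.10 ± 0.469 (adjusted p = 0.885) for oligomycin. One DMSO sample, replicate 2, was higher than the other two. Without it the Cebpd change was 1.70 with piericidin and 1.52 with antimycin, and both passed the test, so at this depth these calls turn on 1 library. Cebpb was between 0.182 and 0.642 CPM in DMSO, 0.452 and 1.89 CPM with piericidin, 0.225 and 1.08 CPM with antimycin and 0.429 and 0.802 CPM with oligomycin, so every treated group overlapped the DMSO group.

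**Figure D1:**
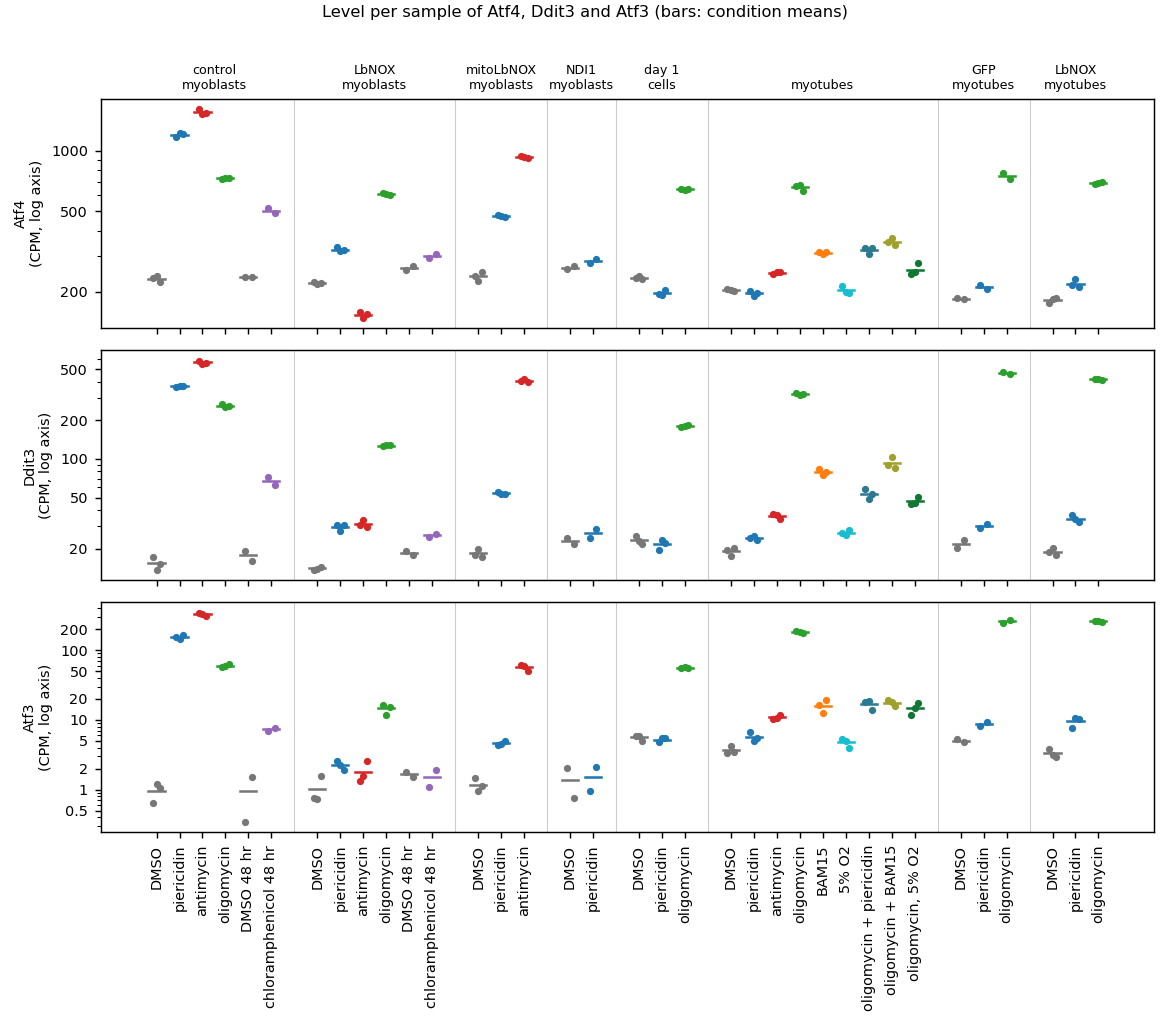
Level in CPM (log axis) of Atf4, Ddit3 and Atf3 in each of the 96 samples (points) with the condition mean (bars), grouped by cell type and transgene and coloured by treatment. The control myoblast antimycin samples are the highest of all for the 3 genes, LbNOX antimycin samples are the lowest for Atf4, and oligomycin alone stands above DMSO in every cell type in which it was given.

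The inhibitors were then compared with each other in control myoblasts. Antimycin against piericidin changed 5 of the 7 genes (37.2% of all genes called). Atf3 was higher with antimycin by 1.08 ± 0.132 on the log2 scale, Ddit3 by 0.63 ± 0.057 and Atf4 by 0.39 ± 0.031. Atf5 was lower by a log2 difference of −0.95 ± 0.276 (adjusted p = 0.00694) and Nupr1 by −0.60 ± 0.066. In control myoblasts the set thus divided, with Atf3, Ddit3 and Atf4 higher with antimycin and Atf5 and Nupr1 higher with piericidin. Cebpg (−0.17 ± 0.132) and Cebpd (−0.18 ± 0.445) did not pass the test. Against oligomycin, Cebpd passed it only without oligomycin replicate 2 (1.31 for antimycin, 1.49 for piericidin).

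Piericidin against oligomycin changed 6 of 7 genes, 5 higher and 1 lower (39.2% of all genes called). Atf3 was higher by 1.39 ± 0.136, Nupr1 by 0.78 ± 0.066, Atf4 by 0.73 ± 0.032 and Ddit3 by 0.52 ± 0.057. The 2 remaining calls were weak. Atf5 was higher by 0.74 ± 0.271 (adjusted p = 0.0305), a call lost without oligomycin replicate 1 or 2 or piericidin replicate 1 or 3 (0.63 to 0.74), and Cebpg lower by −0.33 ± 0.129 (adjusted p = 0.0416), a call lost without oligomycin replicate 1 or 2 or any 1 piericidin replicate (−0.36 to −0.25) and without the count filter.

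Antimycin against oligomycin changed 5 of 7 genes, 4 higher and 1 lower (50% of all genes called). Atf3 was higher by 2.48 ± 0.139, Ddit3 by 1.15 ± 0.057 and Atf4 by 1.12 ± 0.032, and Cebpg was lower (−0.50 ± 0.130, adjusted p = 0.00177). The Nupr1 difference, 0.18 ± 0.066 (adjusted p = 0.0217), was lost without antimycin replicate 2 (0.11) or 3 (0.15) or oligomycin replicate 2 (0.18) or 3 (0.16), with the DESeq2 Wald test or size factors (both 0.16), without the count filter (0.21) and with only the groups compared (0.15), and its samples overlapped.

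Inhibitors were also given to myoblasts whose transgene oxidizes NADH. The NADH/NAD+ ratio is not part of these data. The paper states that NDI1 keeps up ATP synthesis by oxidative phosphorylation as well as NADH oxidation, so these cannot be told apart in NDI1 cells. In DMSO none of the 7 genes passed the test between LbNOX and control myoblasts (edgeR, 2.68% of all genes called, 1 of the 7 at an unadjusted p under 0.05, 0 with DESeq2). The same held for mitoLbNOX (1.77% of all genes called, 2 of the 7 at an unadjusted p under 0.05, 0 with DESeq2), except that Ddit3 was called without control DMSO replicate 1 (0.34). NDI1 myoblasts had slightly higher levels of 3 genes in DMSO (4.61% of all genes called). Ddit3 was higher by 0.59 ± 0.076 (adjusted p = 3.59e-06), Cebpg by 0.53 ± 0.158 (adjusted p = 0.0481) and Atf4 by 0.18 ± 0.036 (adjusted p = 0.00121). These NDI1 calls used 2 samples, and all 3 were lost when only the groups compared were fitted (0.58, 0.53 and 0.18). When 1 of 2 samples is left out, the remaining sample is assumed to vary like the other groups, here and wherever a group had 2 samples. Leaving out NDI1 DMSO replicate 2 in this way ended the Atf4 call (0.15), and leaving out any 1 of the 5 libraries ended the Cebpg call (0.38 to 0.66), which was also lost without the count filter (0.53).

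With piericidin in NDI1 myoblasts, with 2 samples per group, none of the 7 genes passed the test (edgeR, 0.00835% of all genes called, 2 of the 7 at an unadjusted p under 0.05, 0 with DESeq2). Ddit3 held 24.4 and 21.7 CPM in DMSO and 28.7 and 24.1 CPM with piericidin, and Atf4 258 and 266 CPM against 289 and 276 CPM. Ddit3 samples overlapped and Atf4 samples did not. The log2 changes were 0.20 ± 0.081 for Ddit3 (adjusted p = 0.576), 0.12 ± 0.039 for Atf4 (adjusted p = 0.576) and 0.15 ± 0.381 for Atf3. The difference from the response of control myoblasts was itself called for 6 of 7 genes, all smaller in NDI1 cells (42.7% of all genes called), from −7.18 ± 0.502 for Atf3 to −1.61 ± 0.222 for Cebpg.

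LbNOX left a residual piericidin response in 6 of the 7 genes, all higher (8.87% of all genes called). Ddit3 samples held 13.7, 14.5 and 14.0 CPM in DMSO and 27.3, 30.7 and 30.4 CPM with piericidin, a log2 change of 1.07 ± 0.069. Atf4 samples held 224, 220 and 219 CPM and then 316, 331 and 320 CPM, a change of 0.55 ± 0.032. Neither pair of groups overlapped. Nupr1 rose by 0.72 ± 0.073 and Cebpg by 0.71 ± 0.143. The Atf5 change of 1.03 ± 0.304 (adjusted p = 0.0299) was lost without DMSO replicate 1 or 2 or piericidin replicate 1 or 3 (0.86 to 0.96). The Atf3 change of 1.02 ± 0.314 (adjusted p = 0.0389) was lost without DMSO replicate 1 or 3 or any 1 piericidin replicate (0.84 to 1.13) and was 1.53 without DMSO replicate 2. Both were lost when only the groups compared were fitted.

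Set against control myoblasts, the piericidin response was smaller in LbNOX cells for 6 of 7 genes (44.3% of all genes called), with differences of −6.32 ± 0.455 for Atf3, −3.52 ± 0.096 for Ddit3, −2.55 ± 0.102 for Nupr1, −1.84 ± 0.045 for Atf4, −1.21 ± 0.422 for Atf5 and −0.93 ± 0.201 for Cebpg. The Atf5 difference lost its call without LbNOX DMSO replicate 3 (−0.80) or LbNOX piericidin replicate 2 (−1.03). With mitoLbNOX 6 of 7 genes rose with piericidin (11.2% of all genes called), Atf3 by 1.95 ± 0.262, Ddit3 by 1.55 ± 0.065, Atf5 by 1.34 ± 0.284, Cebpg by 1.10 ± 0.138, Nupr1 by 1.04 ± 0.071 and Atf4 by 0.99 ± 0.032. The response was smaller than in control cells for 5 genes (42.8% of all genes called), by −5.39 ± 0.424 for Atf3, −3.04 ± 0.092 for Ddit3, −2.23 ± 0.100 for Nupr1 and −1.39 ± 0.045 for Atf4. The Atf5 difference missed the threshold (−0.90 ± 0.407, adjusted p = 0.0739) and passed it without mitoLbNOX piericidin replicate 1 (−1.05), with well position as a covariate (−0.88), without the count filter (−0.90) and with only the groups compared (−0.92). The Cebpg difference (−0.55 ± 0.197, adjusted p = 0.0256) was lost without control DMSO replicate 2 or 3, mitoLbNOX DMSO replicate 2 or 3, control piericidin replicate 1 or mitoLbNOX piericidin replicate 2 (−0.53 to −0.46), and without the count filter (−0.55).

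Antimycin moved genes of the set in opposite directions in LbNOX myoblasts. Of 7 genes 4 were called, 3 higher and 1 lower, a count near the share of all genes called (46.1%). Ddit3 rose from 13.7, 14.5 and 14.0 CPM to 29.7, 30.8 and 33.5 CPM, a log2 change of 1.17 ± 0.069 (adjusted p = 1.47e-14). Atf4, by contrast, fell from 224, 220 and 219 CPM to 155, 158 and 148 CPM, with no overlap, a change of −0.51 ± 0.032 (adjusted p = 7.49e-14). These were the lowest Atf4 levels of the 35 conditions, and the transcript of the activator and that of its target therefore moved in opposite directions in the same samples.

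The remaining changes under antimycin in LbNOX cells were small. Cebpg (0.42 ± 0.146, adjusted p = 0.0201) lost its call without antimycin replicate 2 or 3 or DMSO replicate 3 (0.31 to 0.36), and Nupr1 (0.20 ± 0.075, adjusted p = 0.0278) without antimycin replicate 1 (0.19) or 3 (0.11) or DMSO replicate 2 (0.21) or 3 (0.16). Both were lost without the count filter (0.39 and 0.17) and with only the groups compared (0.40 and 0.18), and Nupr1 with DESeq2's test (0.19). Atf3 held 2.57, 1.33 and 1.55 CPM against 0.765, 1.59 and 0.746 CPM in DMSO, a change of 0.78 ± 0.328 that missed the threshold (adjusted p = 0.0514) and passed it without antimycin replicate 2 (0.94) or DMSO replicate 2 (1.30), with DESeq2 (0.77) and with well position as a covariate (0.85). Relative to control myoblasts the antimycin response was smaller for 6 of 7 genes (51.5% of all genes called), by −7.64 ± 0.475 for Atf3, −4.06 ± 0.096 for Ddit3, −3.29 ± 0.046 for Atf4, −2.47 ± 0.103 for Nupr1, −1.53 ± 0.450 for Atf5 and −1.05 ± 0.203 for Cebpg.

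In mitoLbNOX myoblasts antimycin still raised 6 of 7 genes (47.7% of all genes called). Ddit3 samples went from 18.0, 17.4 and 20.0 CPM to 402, 416 and 400 CPM (4.48 ± 0.068), Atf4 samples from 240, 249 and 227 CPM to 943, 928 and 916 CPM (1.98 ± 0.033), and Atf3 samples from 1.46, 1.14 and 0.941 CPM to 61.5, 58.8 and 50.7 CPM (5.57 ± 0.209). Nupr1 rose by 2.57 ± 0.072 and Cebpg by 1.73 ± 0.138. The Atf5 change of 0.71 ± 0.293 (adjusted p = 0.0453) had overlapping samples. Its call was lost without antimycin replicate 2 (0.67) or 3 (0.38) or DMSO replicate 1 (0.56) or 2 (0.69), with only the groups compared (0.71), and with well position as a covariate (0.47). Of the 7 genes, Atf3 (−2.85 ± 0.389), Atf4 (−0.80 ± 0.045) and Ddit3 (−0.75 ± 0.090) had a response called different from that of control cells. This count is near the share of all genes called (31.7%). The Nupr1 difference was −0.10 ± 0.099 (adjusted p = 0.485) and that of Cebpg 0.26 ± 0.197 (adjusted p = 0.341).

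Oligomycin raised 6 of 7 genes in LbNOX myoblasts (35.2% of all genes called). Atf4 reached 617, 612 and 605 CPM, a log2 change of 1.48 ± 0.032, and Ddit3 126, 128 and 128 CPM, a change of 3.19 ± 0.067. Atf3 rose by 3.75 ± 0.231, Nupr1 by 1.77 ± 0.072, Atf5 by 1.67 ± 0.298 and Cebpg by 1.66 ± 0.139. The difference from control cells was called for 4 of 7 genes (7.98% of all genes called): Atf3 −2.19 ± 0.396, Ddit3 −0.89 ± 0.092, Nupr1 −0.71 ± 0.100 and Atf4 −0.18 ± 0.045 (adjusted p = 0.0116, lost without the count filter at −0.17). The difference was 0.16 ± 0.420 for Atf5 and −0.31 ± 0.196 for Cebpg, neither past the test.

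**Figure D2:**
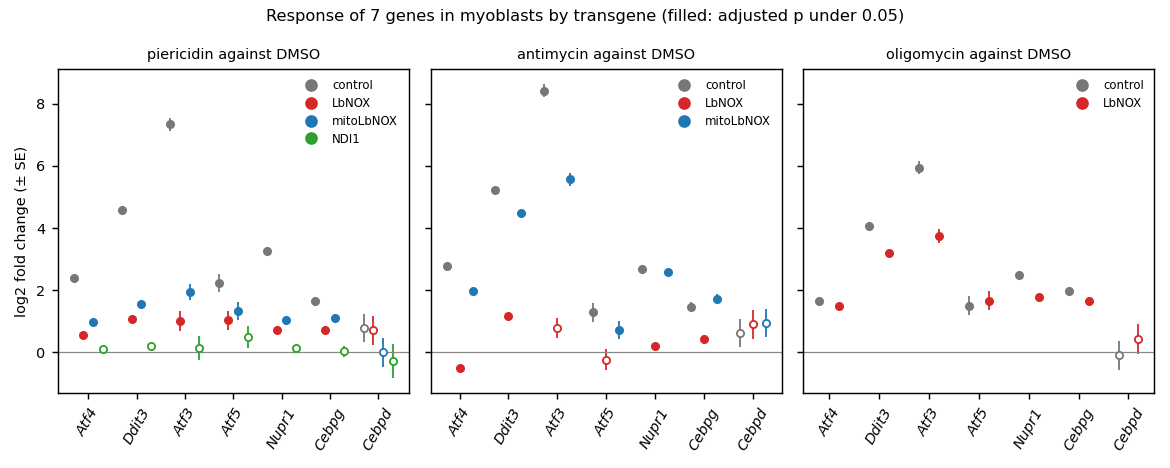
Log2 fold change against DMSO (± SE) of 7 genes in myoblasts with each transgene, for piericidin, antimycin and oligomycin, with filled points for adjusted p under 0.05 and n of 3 samples per condition (2 for NDI1). The control values are the highest for Atf3, Ddit3 and Atf4 in each panel, and Atf4 under antimycin in LbNOX cells (−0.51) is the only filled point below 0.

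Chloramphenicol for 48 hr raised all 6 genes tested in control myoblasts (8.45% of all genes called, 2 samples per group). Atf4 went from 236 and 237 CPM to 519 and 489 CPM, a log2 change of 1.10 ± 0.052 (adjusted p = 4.58e-06). Ddit3 went from 19.3 and 16.1 CPM to 72.9 and 62.2 CPM, a change of 1.95 ± 0.129 (adjusted p = 3.53e-05). Atf5 reached 11.3 and 11.9 CPM from 3.64 and 2.64 CPM (1.91 ± 0.270). Nupr1 rose by 1.10 ± 0.103.

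The weaker chloramphenicol calls were those of Cebpg and Atf3. Cebpg (1.06 ± 0.202, adjusted p = 0.0139) lost its call without chloramphenicol replicate 1 (0.89) or DMSO replicate 2 (0.91). Atf3 held 0.346 and 1.53 CPM in DMSO and 7.03 and 7.57 CPM with chloramphenicol, a change of 2.88 ± 0.516 (adjusted p = 0.0103). With 1 sample left in the chloramphenicol group its value stayed near that size without replicate 1 (2.92) or 2 (2.83) but did not pass the test, and it was 4.35 without DMSO replicate 2. All refits in this comparison that leave out a library test a group of 1, whose spread is taken from the other groups. The DESeq2 Wald test called the 3 genes for which it gave an adjusted p (Atf4, Ddit3 and Nupr1) and gave none for Atf3, Atf5 and Cebpg.

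In LbNOX myoblasts, with 2 samples per group, none of the 6 genes passed the test with chloramphenicol (edgeR, 0.931% of all genes called, 5 of the 6 at an unadjusted p under 0.05, 0 of the 3 with an adjusted p from DESeq2), while Atf4, Atf5 and Cebpg were called without the count filter (0.20, 1.51 and 0.87). Ddit3 held 17.8 and 19.2 CPM in DMSO and 24.7 and 26.1 CPM with chloramphenicol (0.46 ± 0.134, adjusted p = 0.217), and Atf5 3.13 and 1.99 CPM against 7.05 and 7.58 CPM (1.50 ± 0.290, adjusted p = 0.0621). The samples of neither gene overlapped. The response differed from that of control myoblasts for 2 genes (0.530% of all genes called), Ddit3 by −1.49 ± 0.185 (adjusted p = 0.0146) and Atf4 by −0.91 ± 0.073 (adjusted p = 0.00408). The Atf4 call was lost without LbNOX chloramphenicol replicate 1 (−0.88). The Ddit3 call was lost without that library (−1.45), LbNOX chloramphenicol replicate 2 (−1.53), control chloramphenicol replicate 1 (−1.36) or LbNOX DMSO replicate 2 (−1.43). The Atf3 difference of −3.01 ± 0.773 (adjusted p = 0.197) passed the test without the count filter (−2.98).

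In untransduced myotubes oligomycin was the strong inducer, and piericidin and antimycin had small effects. Oligomycin raised 6 of 7 genes (33.3% of all genes called). Atf4 went from 201, 204 and 206 CPM in DMSO to 667, 630 and 678 CPM (1.69 ± 0.047), Ddit3 from 20.3, 17.6 and 19.6 CPM to 325, 321 and 317 CPM (4.06 ± 0.083), and Atf3 from 3.52, 4.20 and 3.32 CPM to 189, 178 and 184 CPM (5.62 ± 0.162). None of these groups overlapped. Nupr1 rose by 1.56 ± 0.077 and Cebpg by 1.25 ± 0.156. Atf5 (0.60 ± 0.209, adjusted p = 0.0281) lost its call without DMSO replicate 1 or 3 or oligomycin replicate 2 or 3 (0.47 to 0.57), without the count filter and with only the groups compared.

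Antimycin in myotubes raised 5 of 7 genes (12.9% of all genes called). Atf3 was at 11.9, 10.7 and 10.2 CPM (1.57 ± 0.179), Ddit3 at 34.4, 36.95 and 37.5 CPM (0.93 ± 0.083) and Atf4 at 249, 249 and 244 CPM (0.29 ± 0.046). Nupr1 rose by 0.37 ± 0.077 (adjusted p = 0.00181), and Cebpg by 0.57 ± 0.158 (adjusted p = 0.0164), a call lost without antimycin replicate 3 (0.52) or DMSO replicate 1 (0.49). Atf5 (0.57 ± 0.208, adjusted p = 0.0744) passed the test without DMSO replicate 2 (0.77) and with well position as a covariate (0.66). Piericidin raised 2 of 7 genes (8.99% of all genes called). Ddit3 reached 23.4, 25.1 and 24.3 CPM (0.36 ± 0.088, adjusted p = 0.00887) and Atf3 5.45, 4.98 and 6.62 CPM (0.65 ± 0.203, adjusted p = 0.0463), while Atf4, at 198, 191 and 202 CPM, changed by −0.04 ± 0.046 (adjusted p = 0.741). Both piericidin calls were lost with only the groups compared (0.36 and 0.65). The Ddit3 call was also lost without DMSO replicate 2 (0.30), and the Atf3 call without any 1 DMSO replicate or piericidin replicate 1 or 3 (0.50 to 0.76).

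BAM15 alone raised 5 of 7 genes in myotubes (25.4% of all genes called). Ddit3 was at 74.5, 82.9 and 79.2 CPM (2.05 ± 0.081), Atf3 at 12.7, 16.1 and 19.4 CPM (2.12 ± 0.174) and Atf4 at 306, 315 and 316 CPM (0.63 ± 0.046). Nupr1 rose by 0.93 ± 0.077 and Cebpg by 0.78 ± 0.158, and Atf5 did not pass the test (−0.22 ± 0.218). In 5% oxygen 2 of 7 genes were higher, a count near the share of all genes called (22.1%). Ddit3 rose by 0.50 ± 0.086 and Nupr1 by 0.22 ± 0.078 (adjusted p = 0.0466). Nupr1 samples in 5% oxygen (71.2, 72.1 and 61.4 CPM) all exceeded those in DMSO (58.7, 59.3 and 60.2 CPM), but the call was lost without any 1 DMSO replicate (0.21 to 0.22), without 5% oxygen replicate 1 (0.18) or 2 (0.16), with DESeq2's test or size factors, without the count filter and with only the groups compared (all 0.20).

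Piericidin, BAM15 and low oxygen each lowered Atf3, Ddit3 and Atf4 from their levels with oligomycin alone. Atf5, which oligomycin also raised, was called in none of these comparisons. Oligomycin with piericidin against oligomycin alone lowered 4 of 7 genes (20.9% of all genes called). Atf3 samples held 14.0, 18.5 and 18.3 CPM (−3.43 ± 0.135), Ddit3 samples 53.6, 48.9 and 58.4 CPM (−2.57 ± 0.075), Atf4 samples 328, 306 and 328 CPM (−1.02 ± 0.046) and Nupr1 samples 94.4, 99.1 and 89.9 CPM (−0.88 ± 0.075). Atf5 (0.20 ± 0.201) and Cebpg (−0.25 ± 0.147) did not pass the test, so the genes of the set were not lowered alike.

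Oligomycin with BAM15 changed 4 of 7 genes against oligomycin alone, 3 lower and 1 higher (26.1% of all genes called). Atf3 changed by −3.35 ± 0.134, Ddit3 by −1.77 ± 0.072 and Atf4 by −0.87 ± 0.045. Nupr1 held 144, 160 and 151 CPM against 181, 175 and 171 CPM with oligomycin alone, a difference of −0.19 ± 0.074 that missed the threshold (adjusted p = 0.0619) although the samples did not overlap, and that passed it without combination replicate 2 (−0.23), with DESeq2's test or size factors (both −0.20) and with only the groups compared (−0.18). Oligomycin in 5% oxygen changed 6 of 7 genes against oligomycin alone, 5 lower and 1 higher (33.3% of all genes called), with −3.61 ± 0.138 for Atf3, −2.73 ± 0.076 for Ddit3, −1.32 ± 0.046 for Atf4, −1.27 ± 0.077 for Nupr1 and −1.11 ± 0.157 for Cebpg.

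Among the 51 comparisons as designed, Cebpd was called in these 2, and in both it was higher. It held 2.66, 2.16 and 1.83 CPM with oligomycin alone, 4.57, 3.27 and 4.33 CPM with BAM15 added and 4.77, 4.03 and 4.02 CPM in 5% oxygen. The groups did not overlap. The difference of 0.89 ± 0.308 with BAM15 (adjusted p = 0.0341) lost its call without combination replicate 1 or 3 or oligomycin replicate 2 or 3 (0.78 to 0.87), and with well position as a covariate (0.80). That of 0.98 ± 0.310 in 5% oxygen (adjusted p = 0.0164) lost its call without 5% oxygen replicate 1 (0.89) or oligomycin replicate 2 (0.95) or 3 (0.85). Neither passed without the count filter. Cebpd in DMSO myotubes (3.52, 3.66 and 3.13 CPM) was above all samples with oligomycin alone, overlapped the BAM15 combination and was below all oligomycin samples in 5% oxygen.

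Each partner was also given without oligomycin, so the oligomycin response itself could be compared. With piericidin present it was smaller for 5 of 7 genes (14.6% of all genes called), with BAM15 for 5 of 7 (18.6%) and in 5% oxygen for 5 of 7 (17.4%). Ddit3 responses differed by −2.92 ± 0.114, −3.82 ± 0.109 and −3.23 ± 0.113, and Atf3 responses by −4.08 ± 0.242, −5.48 ± 0.215 and −3.98 ± 0.246. For Atf4 the differences were −0.99 ± 0.065, −1.50 ± 0.065 and −1.34 ± 0.065, for Nupr1 −0.92 ± 0.109, −1.12 ± 0.107 and −1.49 ± 0.109, and for Cebpg −0.69 ± 0.220, −0.96 ± 0.216 and −1.34 ± 0.226. The Cebpg difference with piericidin (adjusted p = 0.0355) was lost in 8 of the 12 refits without 1 library (−0.71 to −0.56): those without DMSO replicate 1 or 2, oligomycin replicate 1 or 3, combination replicate 1 or 3, or piericidin replicate 2 or 3. It was also lost without the count filter (−0.67) and with only the groups compared (−0.69). These comparisons share the DMSO and oligomycin samples. Each difference also subtracts the effect of the partner alone, and BAM15 alone raised Ddit3 and Atf3. Mean Ddit3 under oligomycin was 92.4 CPM with BAM15, 53.6 CPM with piericidin and 47.0 CPM in 5% oxygen. The order of the Ddit3 differences is therefore not that of the levels reached.

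**Figure D3:**
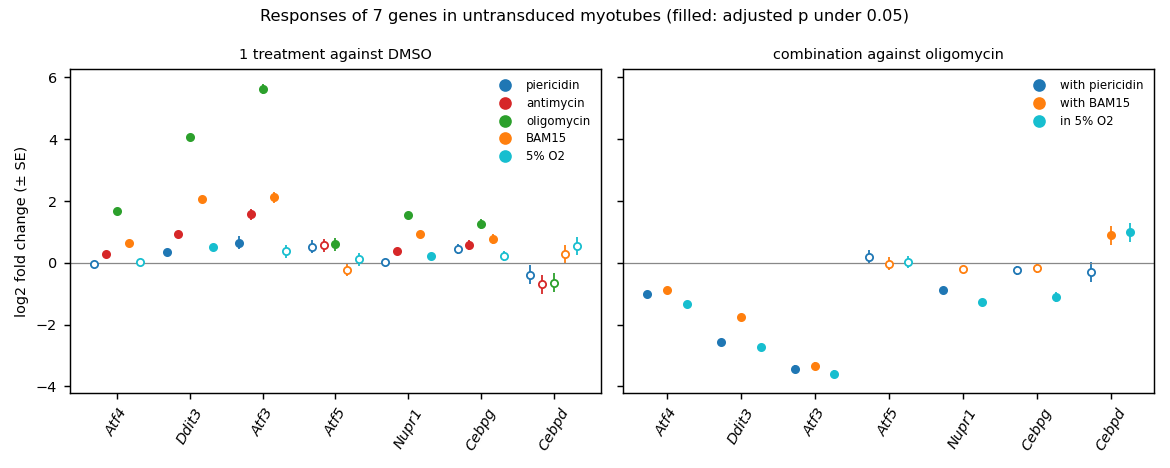
Log2 fold change (± SE) of 7 genes in untransduced myotubes, for single treatments against DMSO (left) and for combinations against oligomycin alone (right), with 3 samples per condition and filled points for adjusted p under 0.05. Oligomycin gives the highest values for Atf4, Ddit3, Atf3, Nupr1 and Cebpg at left, and at right Atf3 (−3.35 to −3.61) is lowered most and Cebpd is the one gene with filled points above 0.

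Myotubes carrying adenoviral GFP or LbNOX served to test the same NADH oxidase after differentiation. In DMSO none of the 7 genes passed the test between LbNOX and GFP myotubes (edgeR, 0.0242% of all genes called, 2 of the 7 at an unadjusted p under 0.05, 0 of the 4 with an adjusted p from DESeq2). Oligomycin raised 6 of 7 genes in GFP myotubes (25.9% of all genes called) and 6 of 7 in LbNOX myotubes (32.0% of all genes called). Ddit3 went from 20.2 and 23.6 to 477 and 460 CPM with GFP (4.44 ± 0.085) and from 18.7, 20.1 and 17.9 to 420, 419 and 408 CPM with LbNOX (4.45 ± 0.070). Atf4 rose by 2.04 ± 0.052 and 1.92 ± 0.043, and Atf3 by 5.70 ± 0.135 and 6.27 ± 0.116.

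Piericidin raised 2 of 7 genes in GFP myotubes (3.09% of all genes called), Ddit3 by 0.47 ± 0.085 (adjusted p = 0.00708) and Atf3 by 0.79 ± 0.158 (adjusted p = 0.0127). Both calls were lost with only the groups compared (0.46 and 0.79). With 1 sample then left in a group and the spread taken from the others, Ddit3 lost its call without GFP DMSO replicate 1 (0.36) or piericidin replicate 2 (0.43), and Atf3 without either DMSO replicate (0.89 and 0.73) or piericidin replicate 2 (0.72). In LbNOX myotubes 4 of 7 genes rose (6.78% of all genes called), Atf3 by 1.51 ± 0.138, Ddit3 by 0.83 ± 0.070, Nupr1 by 0.27 ± 0.058 and Atf4 by 0.25 ± 0.042. Cebpd (−1.13 ± 0.363, adjusted p = 0.082) passed the test as lower without LbNOX DMSO replicate 1 (−1.42) and without the count filter (−1.13). In GFP cells Atf4 (0.19 ± 0.051, adjusted p = 0.0563) passed it with DESeq2's test or size factors (both 0.20). The responses were not shown to differ between LbNOX and GFP cells: for piericidin and for oligomycin 0 of 7 genes were called (edgeR, 0% of all genes called in both, 2 and 1 of the 7 at an unadjusted p under 0.05, 0 with DESeq2), with differences of 0.36 ± 0.110 for Ddit3 and 0.72 ± 0.213 for Atf3 under piericidin and 0.01 ± 0.102 and 0.58 ± 0.191 under oligomycin.

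Day 1 cells had higher levels of most of the genes with oligomycin and lower levels of 2 genes with piericidin. Oligomycin raised 6 of 7 genes (20.7% of all genes called). Atf4 went from 231, 233 and 238 CPM to 645, 637 and 645 CPM (1.48 ± 0.038), Ddit3 from 21.9, 25.3 and 22.8 CPM to 178, 180 and 183 CPM (2.97 ± 0.077) and Atf3 from 4.99, 5.89 and 5.93 CPM to 55.4, 58.2 and 55.1 CPM (3.34 ± 0.106). Cebpg rose by 1.55 ± 0.146, Nupr1 by 1.42 ± 0.073 and Atf5 by 1.40 ± 0.243. Piericidin lowered 2 of 7 genes (2.75% of all genes called), Atf4 to 194, 193 and 204 CPM (−0.24 ± 0.038, adjusted p = 0.00702) and Nupr1 from 48.8, 53.7 and 55.1 to 39.0, 39.1 and 34.4 CPM (−0.48 ± 0.076, adjusted p = 0.00691), with no overlap for either. Ddit3 (−0.10 ± 0.081) and Atf3 (−0.10 ± 0.124) did not pass the test.

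Baseline levels in DMSO were compared between cell states. Day 1 cells exceeded control myoblasts for 3 of 7 genes (63.6% of all genes called), a count below that share from which nothing is read. The differences were 2.49 ± 0.161 for Atf3, 1.20 ± 0.067 for Nupr1 and 0.56 ± 0.071 for Ddit3, while Atf4 differed by −0.02 ± 0.033 (adjusted p = 0.558). Myotubes differed from day 1 cells for 5 of 7 genes, 2 higher and 3 lower (35.6% of all genes called). The 3 lower genes were Atf3 (−0.56 ± 0.127), Ddit3 (−0.24 ± 0.071) and Atf4 (−0.16 ± 0.033), and the 2 higher ones Atf5 (0.59 ± 0.226) and Nupr1 (0.22 ± 0.063). Of these only the Atf4 call held under all alternatives. The Atf5 call was lost in 7 alternatives, among them without replicate 2 of each group (0.29) and with well position as a covariate (0.34). The calls of the other 3 were each lost when 1 replicate number was left out, Atf3 without number 3 (−0.49), Ddit3 without number 2 (−0.18) and Nupr1 without any of the 3 (0.16 to 0.20).

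The response to piericidin was smaller in day 1 cells than in control myoblasts for 6 of 7 genes (46.6% of all genes called), by −7.38 ± 0.180 for Atf3, −4.64 ± 0.097 for Ddit3, −3.70 ± 0.092 for Nupr1 and −2.58 ± 0.047 for Atf4. It was smaller in myotubes for the same number (46.5% of all genes called), by −6.64 ± 0.199, −4.19 ± 0.098, −3.19 ± 0.091 and −2.38 ± 0.047. The antimycin response was smaller in myotubes for 5 of 7 genes (47.9% of all genes called), by −6.80 ± 0.193 for Atf3, −4.25 ± 0.096 for Ddit3, −2.44 ± 0.046 for Atf4, −2.25 ± 0.090 for Nupr1 and −0.85 ± 0.199 for Cebpg. These comparisons use the same control myoblast DMSO samples, and the piericidin ones the same control piericidin samples. Cebpd differences between states passed the test only without replicate 2 of each group, the number of the high control DMSO sample: day 1 cells then exceeded control myoblasts in DMSO by 1.91, and the response differed by −2.47 for piericidin in day 1 cells, −2.27 for piericidin in myotubes and −2.57 for antimycin in myotubes. Without control DMSO replicate 2 the piericidin response of Cebpd also differed between control cells and both mitoLbNOX (−1.69) and NDI1 cells (−1.98).

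Oligomycin responses were closer across states, and the genes of the set differed in this. Between myotubes and control myoblasts the difference was 0.03 ± 0.046 for Atf4, −0.01 ± 0.091 for Ddit3 and −0.31 ± 0.194 for Atf3, none past the test, against −0.93 ± 0.089 for Nupr1 (adjusted p = 4.44e-09), −0.90 ± 0.303 for Atf5 (adjusted p = 0.026) and −0.73 ± 0.195 for Cebpg (adjusted p = 0.0056). These 3 of 7 genes were called, a count near the share of all genes called (29.0%). With well position as a covariate the Atf5 (−0.57) and Cebpg (−0.60) calls were lost and Nupr1 remained called, and without the count filter the Atf5 call was lost (−0.91). Leaving out replicate 2 of each group also ended the Cebpg call (−0.44), and leaving out any 1 replicate number ended the Atf5 call (−1.01 to −0.74). Day 1 cells had smaller oligomycin responses than control myoblasts for 4 of 7 genes (24.9% of all genes called), Atf3 by −2.56 ± 0.180, Ddit3 by −1.07 ± 0.091, Nupr1 by −1.03 ± 0.089 and Atf4 by −0.14 ± 0.046 (adjusted p = 0.0226). The Atf4 difference was lost without replicate 1 (−0.20), without the count filter (−0.15) and with well position as a covariate (−0.13), and was −0.22 without replicate 3.

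**Figure D4:**
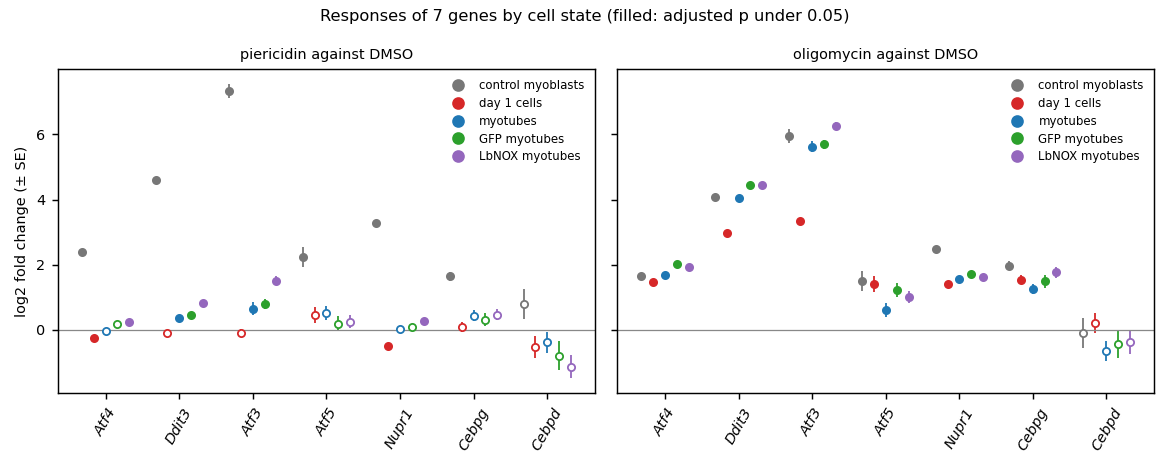
Log2 fold change against DMSO (± SE) of 7 genes for piericidin (left) and oligomycin (right) in control myoblasts, day 1 cells, myotubes, and GFP and LbNOX myotubes, with filled points for adjusted p under 0.05 and 2 or 3 samples per condition. Control myoblasts stand apart at left for Atf4, Ddit3, Atf3, Atf5, Nupr1 and Cebpg, while at right Atf4 lies between 1.48 and 2.04 in all 5 cell types.

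Ordered by mean level over the 35 conditions, Atf4, Ddit3 and Atf3 were all highest in antimycin-treated control myoblasts, at 1553 ± 47.3, 563 ± 15.2 and 327 ± 17.3 CPM. The next condition was piericidin-treated control myoblasts for Atf4 (1196 ± 30.8 CPM, no overlap) and oligomycin-treated GFP myotubes for Ddit3 (469 ± 12 CPM, no overlap) and Atf3 (259 ± 16.6 CPM, no overlap). Nupr1 was highest with piericidin in control myoblasts (212 ± 8.11 CPM), followed without overlap by oligomycin in GFP myotubes (190 ± 5.65 CPM). Atf5 was highest in the same piericidin condition (16.4 ± 2.79 CPM), with overlap with piericidin in mitoLbNOX cells (11.7 ± 2.34 CPM).

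Cebpg was highest with oligomycin in control myoblasts (36.0 ± 4.32 CPM), overlapping antimycin in mitoLbNOX cells (34.3 ± 5.12 CPM). Cebpd was highest in myotubes kept in 5% oxygen with DMSO (4.995 ± 1.47 CPM), a level that overlapped that of DMSO-treated LbNOX myotubes (4.76 ± 2.08 CPM). The lowest means were in control myoblasts after 48 hr of DMSO for Atf3 (0.940 ± 0.84 CPM), Cebpd (0.437 ± 0.25 CPM), Cebpb (0 and 0.0614 CPM in the 2 samples) and Nupr1 (19.6 ± 0.555 CPM), in LbNOX myoblasts for Atf4 (antimycin, 154 ± 5.31 CPM), Ddit3 (DMSO, 14.0 ± 0.387 CPM) and Atf5 (48 hr DMSO, 2.56 ± 0.806 CPM), and in DMSO-treated LbNOX myotubes for Cebpg (6.93 ± 0.149 CPM).

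The highest mean exceeded the lowest 347 times for Atf3, 40.1 times for Ddit3, 11.4 times for Cebpd, 10.8 times for Nupr1, 10.1 times for Atf4, 6.40 times for Atf5 and 5.19 times for Cebpg. The Atf3 and Cebpd ratios depend on single libraries of the control 48 hr DMSO group: the Atf3 ratio was 213 without its replicate 1 and 943 without its replicate 2, and the Cebpd ratio 19.2 without replicate 2. The lowest means of Atf3, Cebpd, Nupr1 and Atf5 came from 48 hr DMSO groups, in which the longer culture, the uridine and the lower seeding cannot be told apart. Of the 34 pairs of neighbours in each order, samples overlapped in 19 for Atf4, 22 for Ddit3, 24 for Nupr1 and 25 for Atf3, but in 33 for each of Atf5, Cebpb, Cebpd and Cebpg. The orders of these last 4 are therefore mostly unresolved by the replicate spread. Without the count filter Cebpb passed the test in 1 of 51 comparisons, antimycin in mitoLbNOX myoblasts (0.911, 0.978 and 1.16 CPM against 0.292, 0.0817 and 0.188 CPM in DMSO, log2 2.36, adjusted p = 0.0453).

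**Figure D5:**
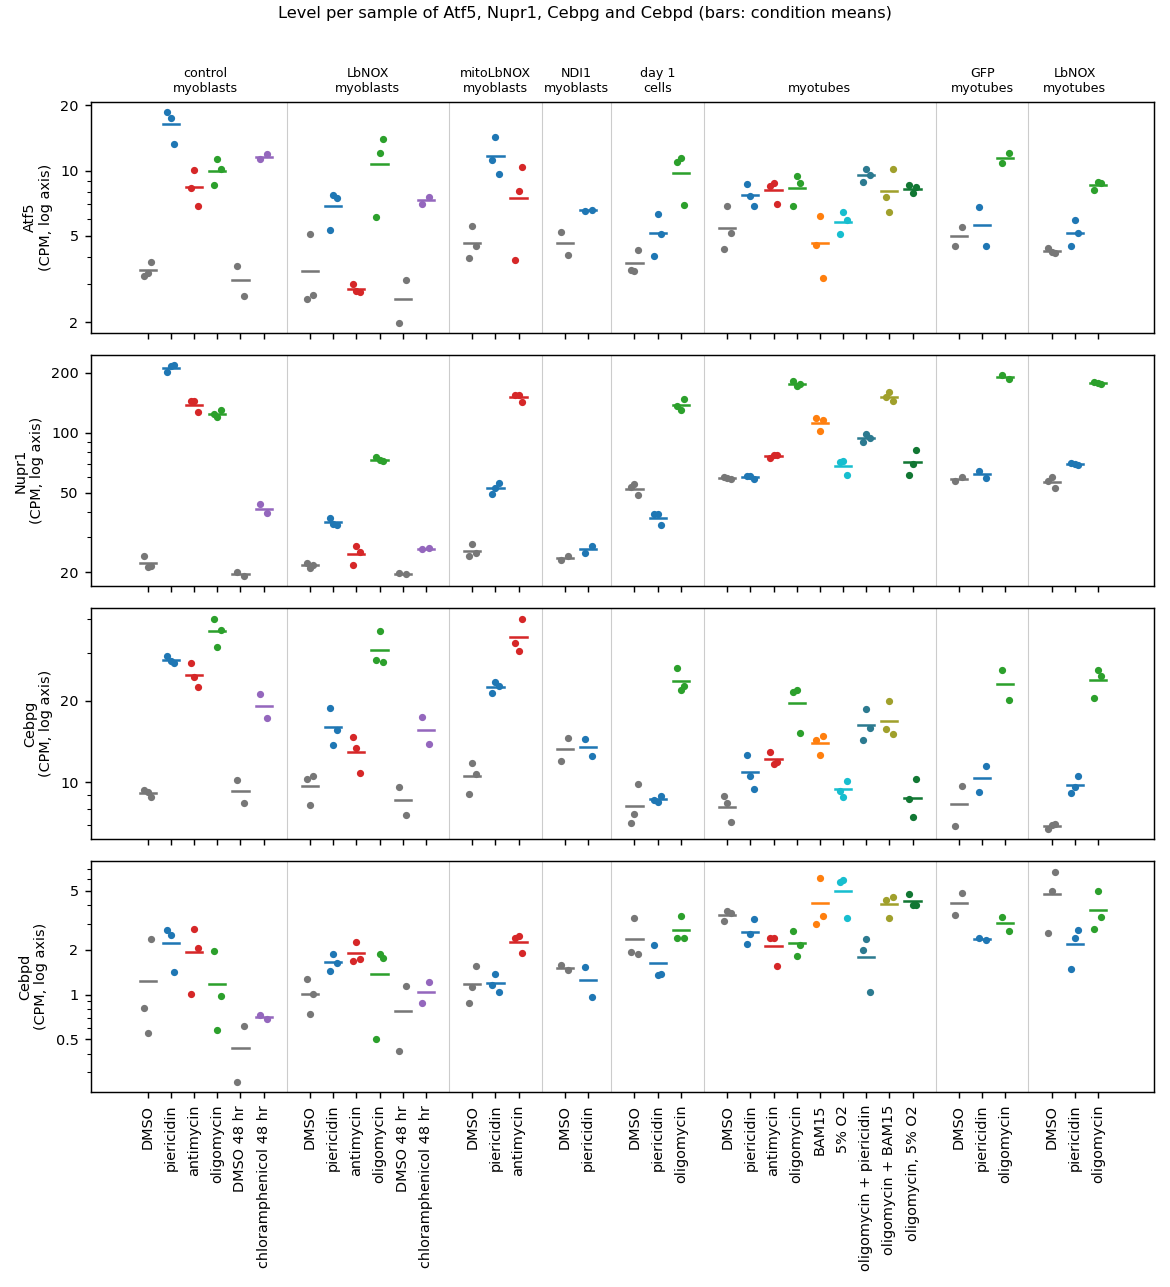
Level in CPM (log axis) of Atf5, Nupr1, Cebpg and Cebpd in each of the 96 samples (points) with the condition mean (bars), grouped by cell type and transgene and coloured by treatment. Nupr1 is highest with piericidin in control myoblasts (212 CPM) and Cebpg with oligomycin in control myoblasts (36.0 CPM), while Cebpd stays at or below 6.73 CPM and scatters within conditions.

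Across the 35 condition means of log2 CPM, Atf3 and Ddit3 had a Pearson r of 0.941, Atf3 and Nupr1 of 0.938, Atf4 and Ddit3 of 0.927 and Atf4 and Cebpg of 0.893, while Cebpd ranged from −0.099 with Cebpg and −0.045 with Atf4 through 0.412 with Atf3 to 0.592 with Nupr1. These are descriptions over conditions that share libraries, depth and vehicle groups. By the same measure the gene most like Ddit3 was Ppp1r15a (r = 0.975), which encodes the eIF2α phosphatase subunit GADD34, followed by Chac1 (0.955), a glutathione-degrading enzyme. Those most like Atf4 were Zfp639 (0.955), Chac1 (0.946) and Zyg11b (0.939), and those most like Atf3 were Gtpbp2 (0.964), Cln8 (0.962) and Spata2 (0.959). Nupr1 was closest to Herpud1 (0.961), a gene of endoplasmic reticulum associated degradation, then Cyb5r1 (0.945) and Atf3 (0.938). Cebpg was closest to Eprs (0.951), an aminoacyl-tRNA synthetase, Ank2 (0.946) and Aldh1l2 (0.942), a mitochondrial folate enzyme. The sparse genes had lower values, Atf5 with Adm2 (0.845), Gpr141 (0.822) and Gpt2 (0.806), an alanine aminotransferase, and Cebpd with Gnas (0.883), Adamts6 (0.878) and Osmr (0.874), a cytokine receptor subunit.

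Other genes of the pathway were counted from 3 lists. The lists were chosen with earlier results of these data known, so the counts describe them and are no independent test. Of 48 tested targets of the integrated stress response, 45 rose and 2 fell with piericidin in control myoblasts (median log2 2.06), 43 rose and 1 fell with antimycin (1.74), and 44 rose and 1 fell with oligomycin (1.79). Of all genes tested 61.7%, 63.2% and 50.8% were called there. Fgf21, a secreted metabolic hormone, changed by 8.30, 7.94 and 6.03, and Gdf15, a stress cytokine, by 4.91 with piericidin and 6.51 with antimycin. With antimycin in LbNOX myoblasts, where Atf4 mRNA fell, 41 targets still rose and 4 fell (median 1.03, 46.1% of all genes called). With piericidin in NDI1 cells 1 rose (0.00835% of all genes called). Chloramphenicol raised 41 of 47 in control myoblasts (8.45% of all genes called) and 28 of 47 in LbNOX myoblasts (0.931%). In myotubes oligomycin raised 43 of 46 and lowered 0 (median 1.20, 33.3% of all genes called). Antimycin raised 37 and lowered 2 there (median 0.41, 12.9%), BAM15 raised 28 and lowered 2 (0.31, 25.4%), 5% oxygen raised 15 and lowered 4 (0.12, 22.1%) and piericidin raised 10 and lowered 4 (0.11, 8.99%).

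Among 19 regulators of the response, which include the eIF2α kinases and phosphatase subunits, 11 rose and 4 fell with piericidin in control myoblasts, 9 rose and 4 fell with antimycin, and 8 rose and 5 fell with oligomycin. With 61.7%, 63.2% and 50.8% of all genes called in these comparisons, nothing is read from the counts of this list. Trib3, a pseudokinase that binds ATF4, rose by 5.26, 5.84 and 4.91 and by 4.66 with oligomycin in myotubes, and Ppp1r15a by 4.86, 4.77, 3.82 and 3.23. Eif2ak2, the kinase PKR, fell with piericidin (−1.79) and antimycin (−2.02). Of 29 other bZIP factors tested, 20 rose and 3 fell with piericidin, 22 rose and 4 fell with antimycin, and 12 rose and 6 fell with oligomycin (medians 0.49, 0.74 and 0.13), beside 61.7%, 63.2% and 50.8% of all genes called. Nfil3, a bZIP repressor of the circadian system, rose by 3.92, 4.22 and 2.74. In myotubes oligomycin raised 7 and lowered 7 of 31 other bZIP factors (33.3% of all genes called), with Bach2 (−1.49), Fosl1 (−1.22) and Mafa (−1.15) among the lower ones.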

How the data were processed

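Poly(A) RNA from 96 samples of C2C12 cells was sequenced by the authors from full-length cDNA libraries that do not keep strand. The submitters' processing notes name bcl2fastq 2.20.0.422, kallisto 0.44 and the mm10 build. The deposited values are estimated counts per gene that the authors obtained by pseudoalignment to Ensembl release 93 transcripts and summed over flow cells, here whole numbers. Pseudoalignment assigns reads of overlapping or near-identical transcripts by model, and polyadenylated RNA gives no measure of translation. Totals ranged from 6458295 to 15366745 counts per sample, and this depth limits Cebpb, Cebpd, Atf5 and DMSO levels of Atf3.

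Groups came from the sample labels. In 6 sets of samples (myoblasts at 10 hr, myoblasts at 48 hr, untransduced myotubes, transduced myotubes, day 1 cells, and the 3 states together), genes were tested if 1 group had no replicate under 16 counts, with edgeR 4.0.16 (TMM, quasi-likelihood F test, 1 coefficient per group, R 4.3.3, limma 3.58.1), adjusted over all genes tested by Benjamini-Hochberg at 0.05. SE is the log2 fold change over the square root of F. Levels are CPM over TMM-scaled totals of all 96 samples, and TPM used exonic lengths of GENCODE M21. Correlations used log2 CPM with a prior count of 1. Responses were compared by interaction contrasts. The script was tested on simulated data. Alternatives were DESeq2 1.42.0 (Wald test), its size factors in edgeR, no count filter, only the groups compared, well position, a replicate block and leaving out each library. Where leaving out a library left 1 sample in a group, that sample was assumed to vary like the other groups. Well position was read from sample codes that the labels do not explain. Same-numbered samples had mean residual correlations of −0.0399 to 0.0552 and were treated as unpaired. Of 87 replicate pairs 0 were identical. The 8 genes and all gene lists were chosen with earlier results of these data known. Genes named beside the 8 were the 3 most alike by Pearson r and up to 3 of each list with the largest called change. Motif and marker lists came from general knowledge.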

Additional observations from a re-analysis of the deposited data

Results flagged for a closer look

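Responses of the tested genes differed between groups in 15 of 17 interaction contrasts, each by edgeR's quasi-likelihood F test of the difference itself. In myoblasts the piericidin response of LbNOX cells differed from that of control cells for 6 of 7 genes (44.3% of all genes called), led by Atf3 (−6.32 ± 0.455), and the antimycin response for 6 (51.5%, Atf3, −7.64 ± 0.475). The oligomycin response differed for 4 (7.98%, Atf3, −2.19 ± 0.396). For mitoLbNOX the piericidin response differed for 5 (42.8%, Atf3, −5.39 ± 0.424) and the antimycin response for 3, a count near the share of all genes called (31.7%, Atf3, −2.85 ± 0.389), and for NDI1 the piericidin response for 6 (42.7%, Atf3, −7.18 ± 0.502). The chloramphenicol response differed between LbNOX and control cells for 2 of 6 genes (0.530% of all genes called), led by Ddit3 (−1.49 ± 0.185).

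In myotubes the oligomycin response with piericidin, with BAM15 and in 5% oxygen differed from that to oligomycin alone for 5 of 7 genes each (14.6%, 18.6% and 17.4% of all genes called), led by Atf3 (−4.08 ± 0.242, −5.48 ± 0.215 and −3.98 ± 0.246). Between day 1 cells and control myoblasts the piericidin response differed for 6 genes (46.6%, Atf3, −7.38 ± 0.180) and the oligomycin response for 4 (24.9%, Atf3, −2.56 ± 0.180). Between myotubes and control myoblasts the piericidin response differed for 6 (46.5%, Atf3, −6.64 ± 0.199), the antimycin response for 5 (47.9%, Atf3, −6.80 ± 0.193) and the oligomycin response for 3 (29.0%), led by Nupr1 (−0.93 ± 0.089). This last count is near the share of all genes called and was 1 to 2 when a replicate number was left out. No test of single outlying samples was run, and groups held 2 or 3 samples.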

How the results depend on the processing

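Of 354 tests of single genes, 210 were called, and 175 of these calls held under every alternative that gave an adjusted p. For 1 of the 175, Atf5 with chloramphenicol in control myoblasts, DESeq2 gave none. No value of a called gene changed sign. Adding the replicate block left all 210 calls and all 144 others on their side, with 6 genes called for piericidin in control myoblasts as without the block. The well covariate could not be fitted for day 1 cells alone, since all their codes, read as well positions, fell at the plate's edge. Depth limits Cebpb, Cebpd, Atf5 and DMSO levels of Atf3.

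The number of genes called moved by over 1.5 times in 11 comparisons; apart from adjusted p-values that DESeq2 did not give, the cause was not tested. With only the groups compared, antimycin in LbNOX myoblasts gave 2 calls in place of 4, myotubes against day 1 cells in DMSO 2 in place of 5, NDI1 against control myoblasts in DMSO 0 in place of 3, piericidin in GFP myotubes 0 in place of 2, piericidin in myotubes 0 in place of 2, and 5% oxygen in myotubes 1 in place of 2. Without the count filter, antimycin in LbNOX myoblasts gave 2, myotubes against day 1 cells 3, chloramphenicol in LbNOX myoblasts 3 in place of 0, and 5% oxygen in myotubes 1. The DESeq2 Wald test gave 3 in place of 6 for chloramphenicol in control myoblasts, 1 in place of 2 for the chloramphenicol response of LbNOX against control myoblasts (in both, the calls not made were genes without an adjusted p from DESeq2), and 1 for 5% oxygen in myotubes, where DESeq2 size factors in edgeR also gave 1. With the well covariate the oligomycin response of myotubes against myoblasts gave 1 in place of 3.

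Leaving out 1 library (or 1 replicate number between states), the calls ranged from 1 to 2 for 5% oxygen in myotubes, from 2 to 4 for antimycin in LbNOX myoblasts, from 0 to 2 for the chloramphenicol response of LbNOX against control myoblasts, from 0 to 1 for mitoLbNOX against control myoblasts in DMSO, from 2 to 3 for myotubes against day 1 cells in DMSO, from 1 to 2 for NDI1 against control myoblasts in DMSO, from 1 to 2 for the oligomycin response of myotubes against control myoblasts, from 0 to 2 for piericidin in GFP myotubes and from 0 to 2 for piericidin in myotubes. The ratio of the highest to the lowest mean, an alternative chosen after seeing the data, ranged from 213 to 943 for Atf3 and from 8.14 to 19.2 for Cebpd. Condition means moved by more than 1 SD in 65 of 560 recalculations with other scalings. By Spearman's rho the 3 genes most like each tested gene shared 1 with those named for Atf3, Ddit3 and Cebpd, 2 for Atf4, Atf5 and Cebpg and 3 for Nupr1. In windows of 150 bases before the start the share of promoters was 2.75% for CARE, 1.61% for the cAMP response element, 5.35% for AP-1 and 0.131% for the C/EBP palindrome.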
